A study of Mus musculus with 2 samples.

Results

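The messages of the cytosolic ribosomal proteins were measured in gastrocnemius, a calf muscle of mixed fibre types. The 86 genes were taken from the 55536 genes of the table by name. Each had a protein-coding transcript and a symbol of Rpl, Rps or Rplp with a digit, or Rpsa, and neither the Rps6k kinases nor names with -ps were used. Of the 86, 77 encode canonical subunits of the ribosome, which are 3 proteins of the P stalk, 43 others of the large subunit and 31 of the small subunit. A further 8 are paralogs of a canonical gene, among them Rpl3l, the partner of Rpl3. The last, Rps19bp1, meets the name rule but encodes a partner protein of Rps19 and not a subunit.

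Total RNA from the muscle of female B6CASTF1/J mice, the F1 of C57BL/6J and CAST/EiJ, was sequenced in 2 libraries labelled as biological replicates 2 and 1 of 1 group, aged 18 to 20 months. Each library started from 300 ng of RNA with ERCC spike-ins, synthetic RNAs added as a yardstick, and ribosomal RNA was reduced before a stranded library was made. The tissue samples carry separate identifiers but 1 donor identifier, which is the strain's name. Expected counts over all genes summed to 43722892 in replicate 2 and 38654555 in replicate 1, of which the 86 genes held 296959 (0.679%) in replicate 2 and 305549 (0.790%) in replicate 1. Values are in TPM (the share of transcripts, corrected for length) as deposited from RSEM, unless kallisto, the second tool, is named. Means are given ± SD (n = 2). With 1 group of 2 libraries no test of a difference was made, and the 95% intervals of a fold cover counting error only. In whole muscle, fewer cells of a type and less RNA per cell cannot be told apart.

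A ribosome is built from ribosomal RNAs and one copy of nearly every ribosomal protein, and only the acidic stalk proteins Rplp1 and Rplp2 sit on it in several copies. Their messages are known for a terminal oligopyrimidine tract, a run of C and T at the start of transcription through which mTOR and Larp1 control their translation when nutrients or growth signals change. Vertebrate genomes also hold many processed pseudogenes of these genes, copies made by reverse transcription of the short and abundant messages. Rpl3l is a paralog of Rpl3 known for its expression in skeletal muscle and heart, and Rpl3 lies at the peptidyl transferase centre of the large subunit.

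Because the reading of the pair rests on telling Rpl3l from Rpl3, their coding sequences are shown first where they are most and least alike. Both are coding bases from GENCODE M21 transcripts, written 5′ to 3′, with the bases that differ between the partners in capitals. Rpl3l lies on the plus strand at chr17:24727820-24736143 and Rpl3 on the minus strand at chr15:80077791-80091868 (mm10). Coding bases 520 to 579 are identical at 52 of 60 positions.
Rpl3l, bases 520 to 579: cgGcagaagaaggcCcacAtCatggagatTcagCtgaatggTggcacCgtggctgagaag
Rpl3, bases 520 to 579: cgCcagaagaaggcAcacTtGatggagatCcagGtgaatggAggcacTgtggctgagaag
Coding bases 163 to 222 are identical at 35 of 60 positions.
Rpl3l, bases 163 to 222: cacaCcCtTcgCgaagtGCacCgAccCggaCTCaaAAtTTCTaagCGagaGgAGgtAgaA
Rpl3, bases 163 to 222: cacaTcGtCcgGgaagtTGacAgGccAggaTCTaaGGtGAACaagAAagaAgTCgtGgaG
Over the aligned coding sequence 899 of 1208 bases were identical (74.4%), with no identical run longer than 22 bases. No stretch of 31 bases of the Rpl3l transcript occurred in a transcript of another gene.

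Ribosomal protein messages made up 1.63% of all TPM in replicate 2 and 1.91% in replicate 1 (1.77 ± 0.197%). Of the TPM of nuclear protein-coding genes, they made up 3.57% in replicate 2 and 4.10% in replicate 1. All 77 canonical genes and 84 of the 86 (97.7%) reached 1 TPM in both libraries, against 45.4% of 22015 nuclear protein-coding genes. The median of the 86 was 184 TPM in replicate 2 and 219 TPM in replicate 1, while the median nuclear protein-coding gene had 0.62 TPM in replicate 2 and 0.67 TPM in replicate 1. Both subunits lay at similar levels. The large subunit without the stalk had a median of 189 TPM in replicate 2 and 234 TPM in replicate 1, and the small subunit had 185 TPM in replicate 2 and 217 TPM in replicate 1. Between the libraries the canonical genes kept nearly the same order (Pearson's r = 0.992, Spearman's rho = 0.989 across 77 genes on the log2 TPM scale, a description of genes that share 2 libraries).

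**Figure D1:**
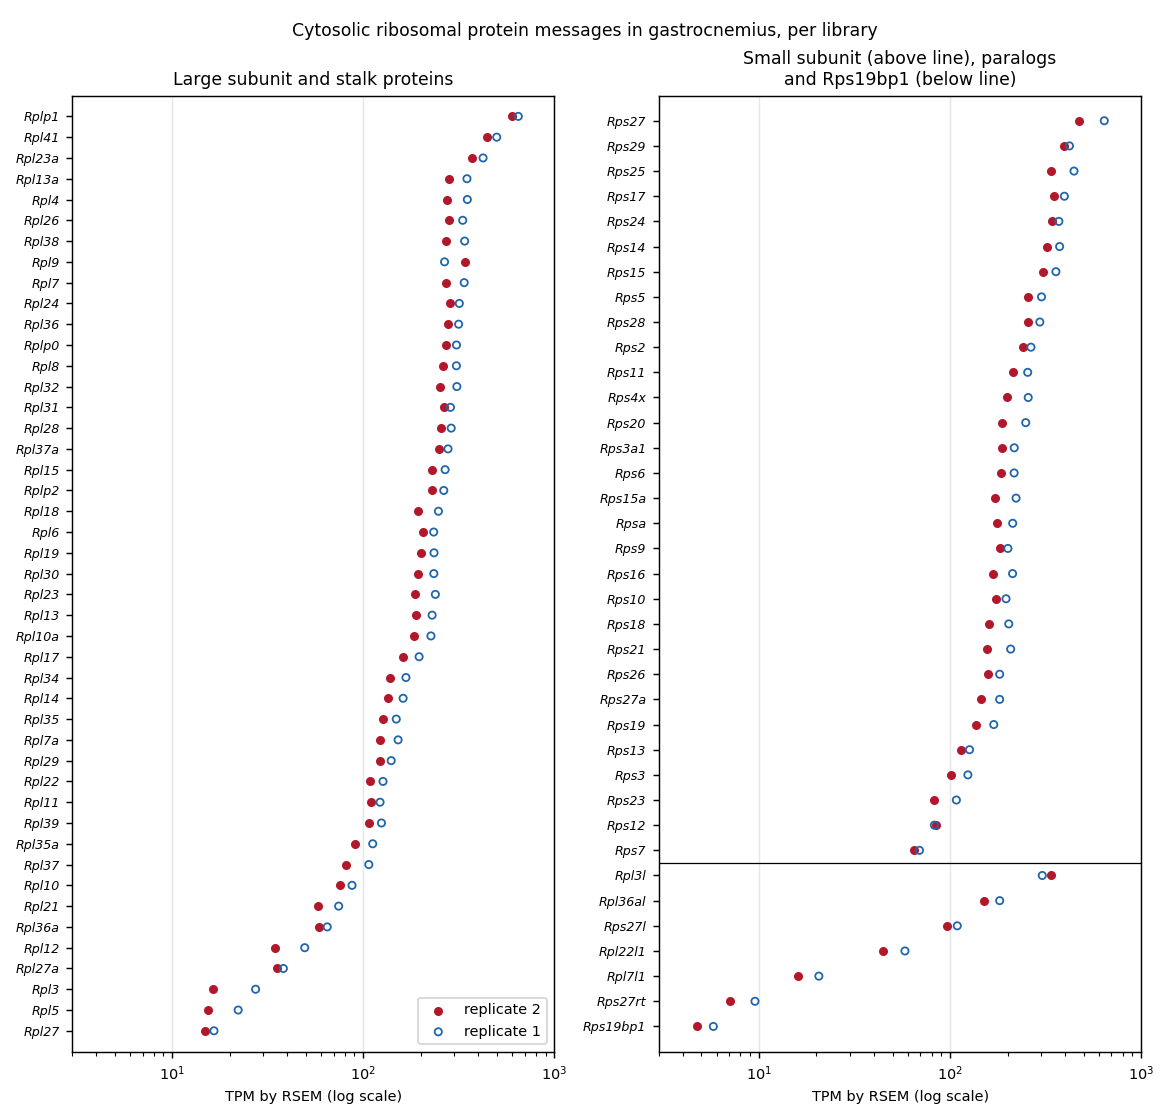
TPM by RSEM on a log scale for each gene in replicate 2 (filled red) and replicate 1 (open blue), with large subunit and stalk genes on the left and small subunit genes, paralogs and Rps19bp1 on the right, each panel sorted by the mean. Rplp1 was highest at 602 and 648 TPM, most genes lay between 100 and 500 TPM in both libraries, and Rpl27, Rpl5 and Rpl3 were the lowest canonical genes. Rpl10l and Rpl39l, at or near 0, and 2 canonical genes not reported here are not drawn.

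The stalk recruits the GTPase factors of translation, and by RSEM its 3 messages lay above the canonical median of 188 TPM in replicate 2 and 234 TPM in replicate 1. Rplp1, one of the acidic stalk proteins, had 602 TPM in replicate 2 and 648 TPM in replicate 1 and was the highest of all 86 genes. Rplp2, its partner in the stalk dimer, had 230 TPM in replicate 2 and 264 TPM in replicate 1. Rplp0, which anchors the dimers to the large subunit, had 272 TPM in replicate 2 and 308 TPM in replicate 1. Rplp1 thus stood above Rplp2 and Rplp0 in both libraries. By kallisto Rplp0 was the highest of the 3, with 536 TPM in replicate 2 and 666 TPM in replicate 1, against 426 TPM in replicate 2 and 524 TPM in replicate 1 for Rplp1, so the order within the stalk depends on the tool. Rplp2 had 212 TPM in replicate 2 and 262 TPM in replicate 1 by kallisto, below the canonical kallisto median of 304 TPM in replicate 2 and 359 TPM in replicate 1.

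Rps27, Rpl41 and Rps29 were among the 5 most abundant canonical messages by mean RSEM TPM. Rps27, a zinc finger protein of the small subunit, had 471 TPM in replicate 2 and 642 TPM in replicate 1. Rpl41, the smallest protein of the ribosome, had 444 TPM in replicate 2 and 500 TPM in replicate 1 (472 ± 39.0). Rps27 was above Rpl41 in both libraries by RSEM, but below it by kallisto, with 578 TPM in replicate 2 and 851 TPM in replicate 1, against 883 TPM in replicate 2 and 1067 TPM in replicate 1 for Rpl41. Rps29, a small zinc-binding protein near the decoding site, had 393 TPM in replicate 2 and 422 TPM in replicate 1. By kallisto it had 305 TPM in replicate 2 and 257 TPM in replicate 1. The canonical kallisto median was 304 TPM in replicate 2 and 359 TPM in replicate 1, so its high place depends on the tool. Fau and Rack1, which encode ribosomal proteins outside the name rule, were at a similar level to the canonical median. Fau, which encodes a small subunit protein behind a ubiquitin-like domain, had 186 TPM in replicate 2 and 231 TPM in replicate 1. Rack1, the scaffold protein on the head of the small subunit, had 168 TPM in replicate 2 and 200 TPM in replicate 1.

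The spread of levels among the canonical genes was wide, and it was narrower once near-identical copies were counted with each gene. Between the quartiles, TPM ran over 123 to 270 in replicate 2 and 149 to 308 in replicate 1, but 10 canonical genes were below 100 TPM in both libraries. The SD of log2 TPM among the 77 was 1.07 in replicate 2 and 1.03 in replicate 1, and 60 of 77 lay within 2-fold of their median. Each gene was then searched for copies, defined as other genes, not themselves among the 86 and not overlapping the gene, that hold at least 50% of the 31-base stretches of its coding sequence. Such copies existed for 68 of the 77. The 293 copies, nearly all annotated as processed pseudogenes, held 5435 TPM in replicate 2 and 6417 TPM in replicate 1, or 24.98% in replicate 2 and 25.14% in replicate 1 of the TPM of the 86 genes and the copies together. With the TPM of its copies added to each gene, the SD of log2 TPM was 0.634 in replicate 2 and 0.591 in replicate 1, and 71 of 77 lay within 2-fold of the median.

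Of the 5 canonical genes with the lowest RSEM values, 4 came within 2-fold of the median in this way and Rpl3 did not. Rpl27 had 14.9 TPM in replicate 2 and 16.6 TPM in replicate 1 alone, and 230 TPM in replicate 2 and 253 TPM in replicate 1 with its copies. The pseudogenes Rpl27-ps3 and Gm11518 each carried 108 TPM in replicate 2 and 118 TPM in replicate 1, equal values for sequences that hold all of the Rpl27 coding stretches. Rpl5, which with Rpl11 and the 5S RNA forms a particle that can bind Mdm2, had 15.5 TPM in replicate 2 and 22.1 TPM in replicate 1 alone, against 212 TPM in replicate 2 and 283 TPM in replicate 1 with copies. Most of this was Gm15500, at 196 TPM in replicate 2 and 261 TPM in replicate 1. Rpl27a had 35.3 TPM in replicate 2 and 38.2 TPM in replicate 1 alone, and with its copies 220 TPM in replicate 2 and 271 TPM in replicate 1. Rpl12, at the base of the stalk, had 34.4 TPM in replicate 2 and 49.4 TPM in replicate 1 alone, and 253 TPM in replicate 2 and 322 TPM in replicate 1 with copies.

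Rpl3 was the exception. It had 16.3 TPM in replicate 2 and 27.3 TPM in replicate 1 alone, and 27.8 TPM in replicate 2 and 44.7 TPM in replicate 1 with its 4 copies. With copies counted it was the lowest of the 77, and the next lowest gene, Rps3, had 3.11 times its mean level. It was also the lowest of the 77 by kallisto, with 30.99 TPM in replicate 2 and 62.02 TPM in replicate 1, and the 1 canonical gene below 100 kallisto TPM in both libraries. The pair was chosen with Rpl3l already known as its muscle partner, so this low place is a description.

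**Figure D2:**
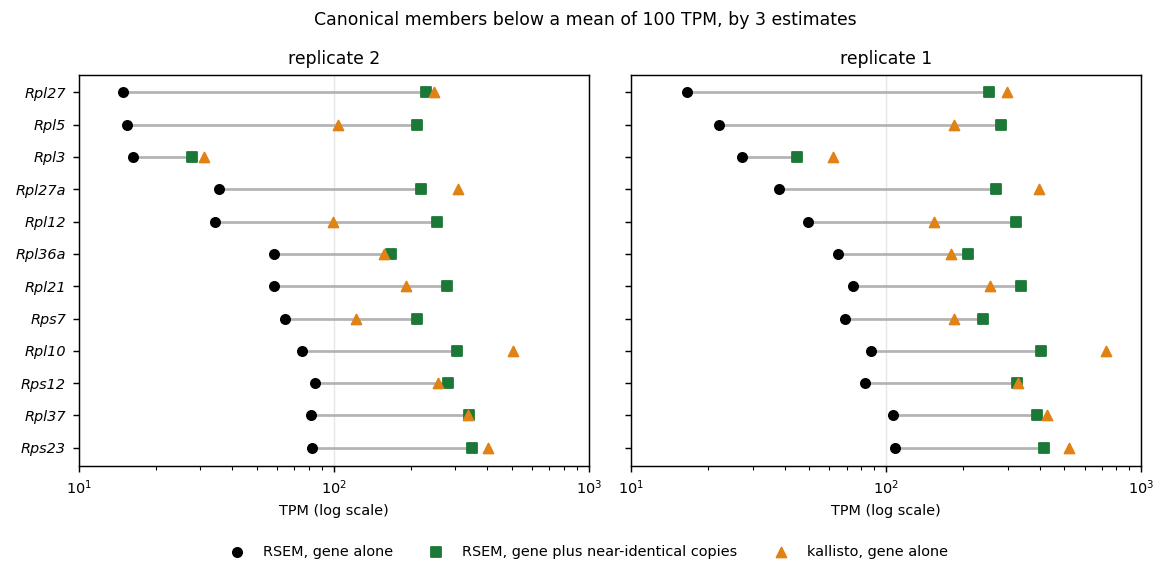
TPM on a log scale for the 12 canonical genes whose mean RSEM value was below 100 TPM, in replicate 2 (left) and replicate 1 (right), as the gene alone by RSEM (black circle), the gene plus its near-identical copies by RSEM (green square) and the gene alone by kallisto (orange triangle). With copies, 11 of the 12 genes lay above 100 TPM in both libraries, and Rpl3 stayed at 27.8 TPM in replicate 2 and 44.7 TPM in replicate 1.

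Rpl3l carried nearly all of the pair. It had 336 TPM in replicate 2 and 304 TPM in replicate 1, from 13966 and 11175 expected counts, whereas Rpl3 had 562 expected counts in replicate 2 and 826 in replicate 1. Rpl3l therefore made up 95.4% of the pair's TPM in replicate 2 and 91.7% in replicate 1 (93.6 ± 2.56%), or 20.6 times the Rpl3 level in replicate 2 and 11.1 times in replicate 1. By kallisto the share was 94.8% in replicate 2 and 90.1% in replicate 1. These shares and folds leave out the 4 copies of Rpl3 and would be lower with them. With the copies, Rpl3 had 27.8 TPM in replicate 2 and 44.7 TPM in replicate 1 by RSEM. Only 11 canonical ribosomal protein genes had a higher mean TPM than Rpl3l. Set against the median of the other 76 canonical genes with their copies, Rpl3l was at 129% in replicate 2 and 98.6% in replicate 1, and Rpl3 with its copies at 10.7% in replicate 2 and 14.5% in replicate 1. The sum of Rpl3l and Rpl3 was 352 TPM in replicate 2 and 331 TPM in replicate 1.

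The other paralogs each took a different share. Rpl36al made up 72.2% of the TPM it shares with Rpl36a in replicate 2 and 73.7% in replicate 1, with 151 TPM in replicate 2 and 182 TPM in replicate 1. That share was 55.3% in replicate 2 and 60.2% in replicate 1 by kallisto, and 2 copies of Rpl36a held a further 109 TPM in replicate 2 and 145 TPM in replicate 1. Rpl22l1, the paralog of the RNA-binding protein Rpl22, had 44.3 TPM in replicate 2 and 58.1 TPM in replicate 1, which was 28.9% of its pair in replicate 2 and 31.4% in replicate 1. Rps27l, a known target of p53, had 96.2 TPM in replicate 2 and 109 TPM in replicate 1, or 17.0% and 14.5% of the sum with Rps27 in the same libraries. Rpl7l1, whose yeast relative works in assembly of the large subunit, had 16.1 TPM in replicate 2 and 20.6 TPM in replicate 1, or 5.62% and 5.75% of its pair. Among the 8 paralogs, Rpl3l and Rpl36al were above their partners, in both libraries and by both tools. With its copies added, Rpl36a had 168 TPM in replicate 2 and 210 TPM in replicate 1, above Rpl36al, whereas Rpl3 stayed below Rpl3l.

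Rps27rt shows the limit of such shares. Its coding sequence matched that of Rps27 at 255 of 255 bases, so reads inside it cannot be told apart. RSEM gave it 7.05 TPM in replicate 2 and 9.53 TPM in replicate 1, and kallisto gave 0 in both. Rps27l, in contrast, differed from Rps27 at 10 bases even where the pair was most alike, in coding bases 40 to 99, with the differing bases again in capitals.
Rps27l, bases 40 to 99: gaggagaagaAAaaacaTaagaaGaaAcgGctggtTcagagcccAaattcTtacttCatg
Rps27, bases 40 to 99: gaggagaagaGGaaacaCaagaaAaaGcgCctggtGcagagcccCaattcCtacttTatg
Both paralogs known from testis were absent or nearly so. Rpl10l had 0 counts in both libraries, and Rpl39l had 1 count in replicate 2 and 0 in replicate 1. A floor of 3 counts corresponds to 0.0686 CPM (counts relative to the library total) in replicate 2 and 0.0776 in replicate 1, so lower levels were not detectable at this depth. Rps19bp1 had 4.72 TPM in replicate 2 and 5.77 TPM in replicate 1.

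**Figure D3:**
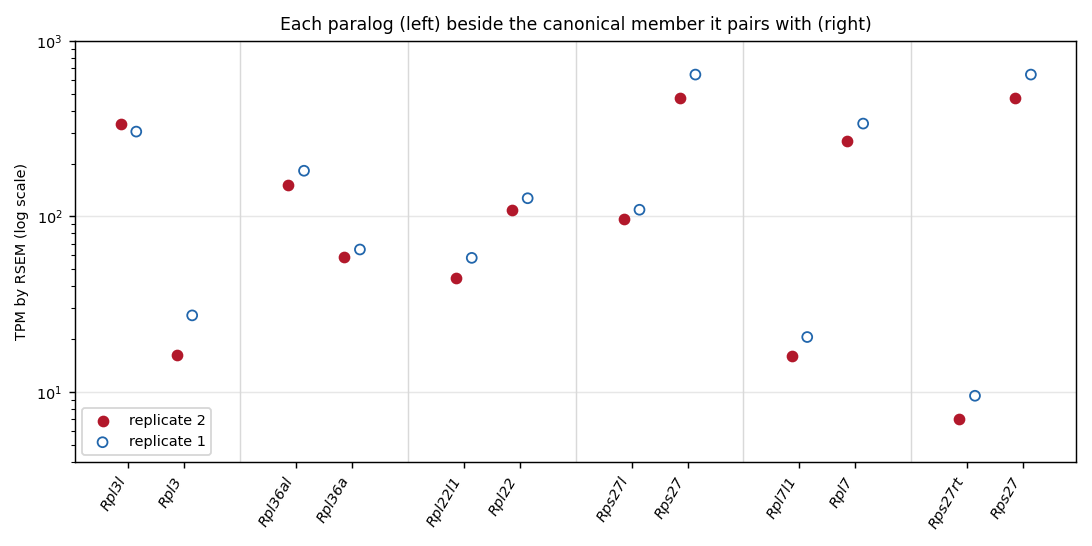
TPM by RSEM on a log scale for each paralog (left of its pair) and its canonical partner (right), in replicate 2 (filled red) and replicate 1 (open blue). Rpl3l and Rpl36al lay above their partners in both libraries, and the other 4 drawn lay below. The pairs of Rpl10l and Rpl39l, listed at 0 in at least 1 library, are not drawn.

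Rows named as pseudogenes of ribosomal proteins were counted as well, whether or not they met the 31-base criterion. The 300 such rows summed to 2479 TPM in replicate 2 and 2903 TPM in replicate 1, or 13.2% of the TPM of the 86 genes and these rows in each library. By kallisto the share was 4.41% in replicate 2 and 4.15% in replicate 1. The highest by the mean of the libraries was Rps23-ps1, with 264 TPM in replicate 2 and 310 TPM in replicate 1, more than Rps23 itself, the protein at the decoding centre, with 82.2 TPM in replicate 2 and 108 TPM in replicate 1. Rpl10-ps3 had 229 TPM in replicate 2 and 317 TPM in replicate 1, and Rpl28-ps1 had 254 TPM in replicate 2 and 279 TPM in replicate 1. Rpl31-ps8 had 148 TPM in replicate 2 and 185 TPM in replicate 1. Kallisto gave these 4 rows 0 TPM in both libraries. Rps2-ps13 on chromosome X differed from them, since both tools assigned reads to it, with 193 TPM in replicate 2 and 223 TPM in replicate 1 by RSEM and 210 TPM in replicate 2 and 225 TPM in replicate 1 by kallisto. Whether any of these rows is transcribed was not tested.

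The 2 tools differed for many of these genes. The median of kallisto TPM over RSEM TPM was 1.65 among the canonical genes and 1.35 among 4519 nuclear protein-coding genes with at least 10 TPM. Kallisto exceeded RSEM 17.3 times for Rpl27, with 247 TPM in replicate 2 and 298 TPM in replicate 1. For Rpl27a the ratio was 9.55, for Rpl5 7.64, for Rpl10 7.56 and for Rps23 4.85. At the other end, the ratio was 0.493 for Rpl36, 0.672 for Rpl19, 0.690 for Rps29, 0.701 for Rpl17 and 0.760 for Rplp1. Across the 77 genes log2 TPM by kallisto followed that by RSEM with r = 0.608 (rho = 0.647). With copies added to the RSEM values only, r was 0.712 (rho = 0.668). The ratio of the tools showed little relation to the percent of a gene's 31-base stretches found in other genes (r = -0.145, rho = -0.207), which had a median of 63.4%. Levels of single genes in TPM are therefore uncertain by these factors, and Rpl3l, which shares no such stretch, also had a ratio of 1.77. In counts, which are not corrected for length, the canonical median of the ratio was 1.05 and Rpl3l had 0.939. Of the 77 genes, 18 were more than 1.5 times apart in counts. The ratio in counts was 11.1 for Rpl27, 0.152 for Rpl36, 0.218 for Rps29 and 0.290 for Rplp1.

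Transcripts of types other than protein_coding made up 17.0% of the TPM of the 86 genes in replicate 2 and 17.8% in replicate 1. Transcripts annotated with a retained intron held 7.03% in replicate 2 and 7.57% in replicate 1, and targets of nonsense-mediated decay, which destroys messages with early stops, held 4.63% in replicate 2 and 4.68% in replicate 1. By kallisto the non-coding share was 33.7% in replicate 2 and 33.1% in replicate 1. Single genes stood far above this average. In Rps16 such transcripts took 98.5% in replicate 2 and 98.8% in replicate 1, led by Rps16-203 with a retained intron, at 100.2 TPM in replicate 2 and 130 TPM in replicate 1. The share was 97.0% in both libraries for Rps20, and 95.2% in both for Rpl35. Rps26 had 91.1% in replicate 2 and 94.98% in replicate 1 by RSEM, but 36.4% in replicate 2 and 40.1% in replicate 1 by kallisto. Isoform shares of Rps26 thus turn on the tool.

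**Figure D4:**
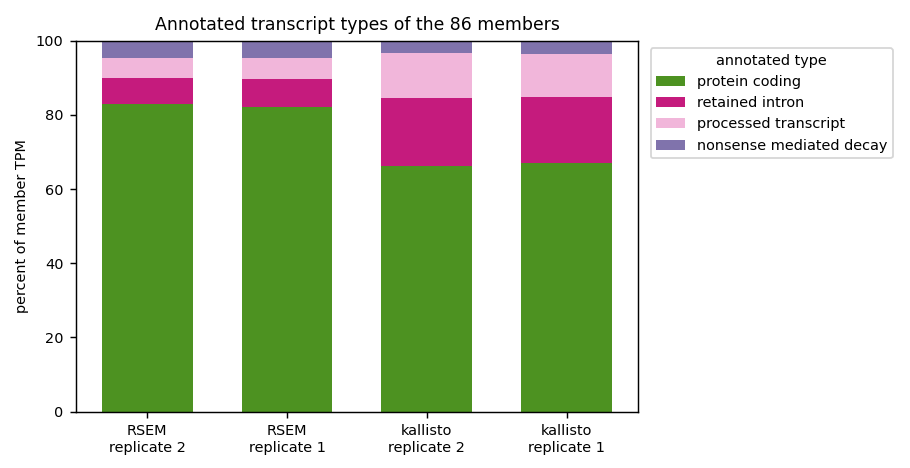
Percent of the summed TPM of the 86 genes held by each annotated transcript type, stacked to 100, for RSEM in replicates 2 and 1 and kallisto in replicates 2 and 1. The protein-coding type held 83.03% in replicate 2 and 82.2% in replicate 1 by RSEM, and 66.3% in replicate 2 and 66.9% in replicate 1 by kallisto.

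Between the libraries these messages moved little and together. The log2 ratio of replicate 2 over replicate 1, from TMM-scaled counts, had a median of -0.08 over the 84 genes tested, against 0.00 over all 12969 genes tested. None of the 84 was 2-fold apart, against a background of 4.64% of all genes tested, and none was 1.5-fold apart on this scale, against 13.7%, with Rpl3 at the edge (a fold of 0.667 from the counts alone). The ratio was below 0 in 72 of 84 (85.7%), against 50.2% of all genes tested, so most were slightly lower in replicate 2. The SD of the ratio was 0.131 among the 84 genes and 0.471 among nuclear protein-coding genes, many of which have far fewer counts. Among 195 other protein-coding genes with mean TPM between the quartiles of the canonical genes, the SD was 0.545, the median ratio 0.19, and 59 were below 0. Of the gene groups described below, those named Psma to Psmd and the ribosome biogenesis list each had an SD of 0.124. It was 0.166 among other messages known for a pyrimidine tract. Mitochondrial ribosomal proteins had 0.257, a value that includes Mrpl23 at -1.72. Their quartiles were 0.15 and 0.31, against -0.17 and -0.04 for the 84 genes. Host genes of small nucleolar RNAs had 0.323, and genes that control translation 0.471, with Myc at -1.59. A small SD was thus not particular to the ribosomal protein genes. Scaling by spike-in totals moved the median of all genes to -0.22 and that of the ribosomal protein genes to -0.30, with 82 of 84 below 0, against 76.4% of all genes tested. Such a scaling moves all genes alike.

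By RSEM the ratio of 3 genes lay apart from the rest. Rpl9, near the base of the stalk, had 342 TPM in replicate 2 and 266 TPM in replicate 1, from 7151 and 4939 expected counts. It was the highest ratio, with a fold of 1.42 (95% interval 1.37 to 1.47) and a log2 ratio of 0.50, against 0.52 by kallisto and 0.53 with the counts of its copies added. Rpl3l came next, with a fold of 1.22 (1.19 to 1.26). Rpl3 was the lowest, with a fold of 0.667 (0.598 to 0.743), and a log2 ratio of -0.58, or -0.57 by kallisto. The partners Rpl3l and Rpl3 thus lay at opposite ends of the comparison of the 2 libraries.

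Among the other extremes, Rps12 of the small subunit had a log2 ratio of 0.15 by RSEM and -0.07 by kallisto, a change of sign with the tool. Rps28, another small subunit protein, had a kallisto ratio of 0.33, above that of Rpl3l at 0.30, but -0.06 by RSEM. It had 1522 counts in replicate 2 and 1192 in replicate 1 by kallisto, against 2399 and 2442 by RSEM. Rps29 had 0.05 by RSEM and 0.52 by kallisto, as high there as Rpl9. That kallisto value rests on 945 counts in replicate 2 and 646 in replicate 1, against 3754 and 3556 by RSEM. A copy, Gm14303, holds all coding stretches of Rps29. RSEM gave this copy 148 TPM in replicate 2 and 137 TPM in replicate 1, and kallisto gave it 0 in both. The cause of the difference between the tools was not tested. Rplp1 had 0.04. Below 0, Rpl5 had -0.33 (-0.51 by kallisto), Rpl12 -0.31, Rps27 -0.30 and Rps27rt -0.27.

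**Figure D5:**
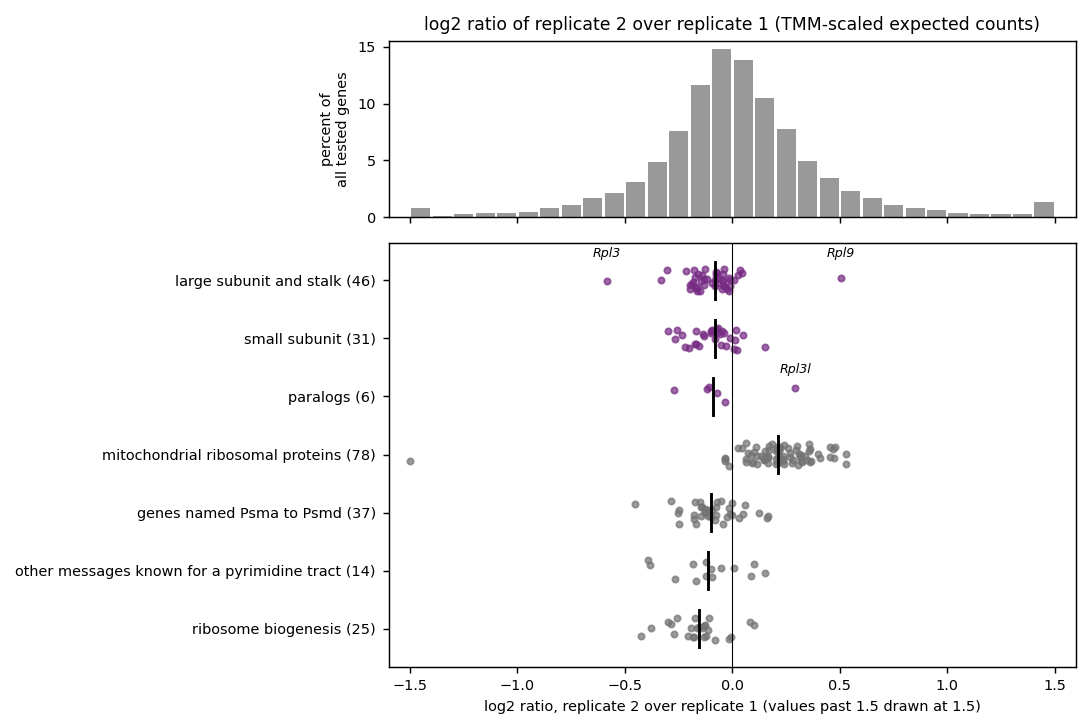
Log2 ratio of replicate 2 over replicate 1 from TMM-scaled expected counts, above as the percent of all tested genes per bin of 0.1 and below as 1 point per gene for each gene group (number tested in parentheses, black bar at the median, values past 1.5 drawn at 1.5). The ribosomal protein genes cluster just below 0 with Rpl9 at 0.50, Rpl3l at 0.29 and Rpl3 at -0.58, and the mitochondrial ribosomal proteins centre at 0.21.

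The mitochondrial ribosomal proteins, nuclear-encoded subunits of the separate organelle ribosome, had ratios mostly above 0. Their 78 genes had a median of 24.5 TPM in replicate 2 and 22.6 TPM in replicate 1. The median log2 ratio was 0.21, with 5 of 78 below 0, against 50.2% of all genes tested. With spike-in scaling that median was -0.01, with 44 of 78 below 0, against the 76.4% of all genes under that scaling. Genes named Psma to Psmd are mostly proteasome subunits but include others, such as Psmc3ip, a recombination protein. They had a median of 48.3 TPM in replicate 2 and 59.9 TPM in replicate 1, a median ratio of -0.10, and 31 of 37 below 0.

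Markers of the tissue were as labelled and showed where the libraries differ. All 6 markers of muscle fibres were present in both libraries, with Acta1, the skeletal actin, at 23051 TPM in replicate 2 and 21825 TPM in replicate 1. Myh7, the slow myosin, had 409 TPM in replicate 2 and 65.8 TPM in replicate 1. The fibro-adipogenic markers (3 of 3 at 1 TPM or more) summed to 139 TPM in replicate 2 and 148 TPM in replicate 1. Among them Col1a1, a fibrillar collagen chain, had 28.3 TPM in replicate 2 and 9.69 TPM in replicate 1, and Dcn, a matrix proteoglycan, had 104.5 TPM in replicate 2 and 132.6 TPM in replicate 1. The endothelial markers (3 of 3) summed to 30.01 TPM in replicate 2 and 34.95 TPM in replicate 1, and the macrophage markers (3 of 3) to 20.1 TPM and 25.1 TPM in the same libraries. Erythrocyte markers (2 of 2) summed to 277 TPM in replicate 2 and 289 TPM in replicate 1. Those of T and B cells (0 of 3) summed to 0.01 TPM in replicate 2 and 0.15 TPM in replicate 1, with Cd3e at 0, and those of satellite cells (0 of 2) to 0.98 TPM and 2.04 TPM. Their part in the ratios of the ribosomal protein genes was not tested.

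Other genes of the pathway were taken from fixed lists, and their ratios stand beside a background of 50.2% of all genes tested below 0. Among 14 further messages known for a pyrimidine tract, the median ratio was -0.11, with 10 of 14 below 0. The highest by the mean of the libraries were Tpt1, a growth-linked protein, at 1561 TPM in replicate 2 and 1824 TPM in replicate 1, the elongation factor Eef2 at 578 TPM in replicate 2 and 686 TPM in replicate 1, and Eef1a1, the elongation factor that brings in aminoacyl-tRNA, at 186 TPM in replicate 2 and 234 TPM in replicate 1. The ribosome biogenesis list of 25 genes had a median of 10.6 TPM in replicate 2 and 14.3 TPM in replicate 1, and 23 of 25 had a ratio below 0, with a median of -0.15. Its most abundant messages were the nucleolar proteins Ncl, at 43.5 TPM in replicate 2 and 55.4 TPM in replicate 1, and Nop10, at 22.9 TPM in replicate 2 and 27.8 TPM in replicate 1, and Eif6, which keeps the subunits apart until maturation, at 19.9 TPM in replicate 2 and 23.8 TPM in replicate 1.

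The 7 host genes of small nucleolar RNAs, non-coding genes with pyrimidine tracts, had a median ratio of -0.41, with 6 of 7 below 0. They include Gas5, at 27.5 TPM in replicate 2 and 39.6 TPM in replicate 1, Snhg8, at 11.4 TPM in replicate 2 and 13.7 TPM in replicate 1, and Snhg6, at 8.52 TPM in replicate 2 and 8.27 TPM in replicate 1. Of 12 genes that control the translation of ribosomal protein messages, 7 had a ratio below 0, with a median of -0.06. The most abundant were Eif4ebp2, a repressor of cap-dependent initiation, at 64.6 TPM in replicate 2 and 75.8 TPM in replicate 1, Larp1, which binds the tract, at 42.7 TPM in replicate 2 and 45.8 TPM in replicate 1, and Tsc2, an inhibitor of mTOR, at 45.9 TPM in replicate 2 and 39.9 TPM in replicate 1. Myc, a driver of ribosome production, was the 1 gene of the 12 past 2-fold, with 1.49 TPM in replicate 2 and 4.80 TPM in replicate 1, a fold of 0.327 (0.255 to 0.415) that rests on 92 and 276 counts.

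The starts of these genes were read from the RefSeq promoter table (GRCm38.p6), which held 66 of the 86. A tract was called where a run of at least 5 C or T began with C within 10 bases of an annotated start. It was found in 40 of 66 (60.6%), against 34.4% of 27025 genes, runs of at least 7 in 30 of 66 (45.5%), against 14.1%, and runs of at least 4 in 42 of 66 (63.6%), against 52.1%. The 4 starts below show long tracts in canonical genes and, last, 1 of the 2 Rpl3l starts, whose short tract of 5 bases begins 9 bases past the start. No tract was found at the other Rpl3l start. Some canonical genes were alike in this, with 5 bases at the same position in Rpl36a and no tract in Rpl5. The partner Rpl3 was not among the 66. Each window holds the 20 bases before and the 20 bases from the annotated start, with the tract in capitals.
Rpl35 (chr2:39005112-39005151, minus strand): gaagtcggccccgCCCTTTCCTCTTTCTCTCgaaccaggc
Rpl28 (chr7:4792945-4792984, plus strand): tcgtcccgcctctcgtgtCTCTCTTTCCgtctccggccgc
Rpl38 (chr11:114668560-114668599, plus strand): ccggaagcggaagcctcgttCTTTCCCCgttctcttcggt
Rps18 (chr17:33955646-33955685, minus strand): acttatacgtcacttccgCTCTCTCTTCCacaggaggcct
Rpl3l (chr17:24727806-24727845, plus strand): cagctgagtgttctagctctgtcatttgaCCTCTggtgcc
Annotated starts can lie several bases from the start in use, and with a window of 20 bases the counts were 53 of 66 (80.3%) and 53.3% of genes.

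Short motifs were counted on both strands of the whole 300-base promoter window of each gene. CCGGAAG, the core bound by ETS factors such as GABP, was in 26 of 66 (39.4%), against 9.93% of genes. AAGATGGCG, the core of the YY1 motif, was in 4 of 66 (6.06%), against 1.64%. TATAAA was in 7 of 66 (10.6%), against 15.7%, the E-box CACGTG in 6 of 66 (9.09%), against 8.09%, and GATTGG, the CCAAT box, in 10 of 66 (15.2%), against 18.2%. A match says only that these letters stand in the window.

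The genes lie on 19 chromosomes, with at most 14 on one. Small nucleolar RNA genes, which guide the modification of ribosomal RNA, lie inside 30 of the 86 (34.9%) on the same strand, against 1.18% of nuclear protein-coding genes. Rpl4 held 5 of the 58 such genes, and Rpl13a held 4.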

How the data were processed

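The authors deposited, per the labels, gene and transcript tables for each of 2 total RNA-seq libraries, with mm10 and GENCODE M21 named in the notes deposited with each library. The aligner, the strand settings and tool versions: not given in the sources used here. Expected counts and TPM deposited by the authors carry RSEM's column names, per the file headers, and estimated counts and TPM per transcript in another deposited table carry those of kallisto. Deposited FPKM values, and the deposited percent that a transcript has of its gene, were not used. RSEM's deposited posterior mean TPM served as an alternative.

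Expected counts were rounded. Genes whose 2 counts summed to 50 or more were scaled by TMM in edgeR 4.0.16 (R 4.3.3) and expressed as log2 CPM with a prior count of 2, with DESeq2 1.42.0 size factors and spike-in totals as alternatives. The log2 ratio is replicate 2 over replicate 1. Fold intervals (95%) were computed from the exact binomial distribution of replicate 2's reads among both, rescaled by library size, and without molecular identifiers PCR copies count as separate reads. Copies were found from stretches of 31 bases in GENCODE M21 transcripts, and coding sequences were aligned with Biopython 1.88. Other steps ran in Python 3.11.15 with scipy 1.17.1, pandas 2.3.3 and numpy 2.4.6. The steps were tested on simulated data.

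The genes, lists, settings and naming rule were chosen with earlier results of these data known. The rule names Rpl3, Rpl3l, the other paralogs, the stalk, the 5 highest and 5 lowest canonical genes, the 5 highest and 5 lowest ratios, the 5 extremes of kallisto over RSEM on each side, the 5 genes of highest non-coding share and the 5 highest pseudogene rows. It also names up to 3 genes of each list, with Fau and Rack1. A few of the genes it picks are not reported here by name, but counts and medians include them. Copies by shared coding stretches, and genes named with them, were chosen after their values were seen. Protein sequences were not used here.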

Additional observations from a re-analysis of the deposited data

How the results depend on the processing

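With 1 group of 2 libraries, the spread rests on 2 values. Depth limits genes with few counts, such as the low paralogs and Rps19bp1 (113 counts in replicate 2 and 121 in replicate 1). The share of all TPM, 1.77%, was 2.99% by kallisto, 3.84% of nuclear protein-coding TPM and 0.735% of expected counts. The median of 202 TPM was 312 TPM by kallisto. The median log2 ratio of -0.08 was -0.30 with spike-in totals, -0.069 with no count filter, -0.0898 where the 2 counts had to reach 500 and -0.0939 with the counts of copies added, and stayed below 0 in every setting run. The non-coding transcript share was 33.4% by kallisto against 17.4%, and the share of pseudogene rows was 4.28% against 13.2%. The SD of log2 TPM, 1.05, was 0.613 with copies and 0.780 by kallisto. Settings with copies, and the ratio without Rpl9, Rpl3l and Rpl3, were chosen after seeing the data. Without replicate 1 or without replicate 2 the share of TPM ran from 1.63% to 1.91%, and the median from 184 to 219 TPM. The Rpl3l share, with no copies of Rpl3 counted, ran from 91.7% to 95.4% in the same way. The non-coding share ran from 17.0% to 17.8%, and the pseudogene share stayed at 13.2%. A ratio without 1 library cannot be formed. The count of 2-fold genes was 0 in every setting run, and counts of expressed genes and of tracts stayed within 1.5-fold. The cause of these shifts was not tested. No paired analysis was possible because there is 1 group.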
